A study of Mus musculus with 2 samples.

Results

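The 6 Iroquois genes of the mouse, Irx1 to Irx6, were described across the DNase-seq data of the heart, with all accessible regions and footprints of the 2 gene clusters in which they lie. The members were taken by name from the GENCODE M21 annotation of mm10, and all 6 were found among 21911 protein-coding genes. Each cluster was read from 100 kb before its first gene to 100 kb after its last. The window of Irx1, Irx2 and Irx4 was chr13:71857921-73369608 (1.51 Mb), and that of Irx3, Irx5 and Irx6 was chr8:91698525-92780956 (1.08 Mb). Together the windows held 113 of 143122 peaks in replicate 1 and 123 of 125118 in replicate 2, and 251 of 350009 and 288 of 335568 footprints. Merging the peaks of both replicates gave 140 of 158036 accessible regions.

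In DNase-seq the enzyme DNase I cuts nuclear DNA wherever chromatin is open to it, and footprints are short stretches within such DNA that were protected from cutting. The tissue was heart of male mice at 14 days of age from the strain B6CASTF1/J, first-generation offspring of a C57BL/6J and CAST/EiJ cross, with no treatment named. There was 1 group of 2 biological replicates, and 3 males are named for replicate 1, whereas nothing is said of how many animals gave replicate 2. The labels give no control or second condition, so every value below is a description of these 2 libraries, and an SD over them could mix pooled and single hearts. Peak signal had been scaled by read depth by the authors, with the depth of the libraries unknown, so no counting interval can be attached to a signal. Its median over all peaks was 0.780 in replicate 1 and 0.728 in replicate 2. The labelled tissue was checked against marker promoters. All 8 markers listed for ventricular cardiomyocytes had a peak in both replicates. So did 5 of 5 endothelial, 5 of 5 fibroblast and 3 of 3 smooth muscle markers, against 0 of 4 hepatocyte and 0 of 4 lung epithelial markers. Of 5 atrial markers 3 did, of 3 leukocyte markers 1, of 4 neuronal markers 2 and of 4 skeletal muscle markers 2. Over all protein-coding genes 68.8% did. Snap25 (mean 6.18), from the neuronal list, and Ckm (4.58), from the skeletal muscle list, had more signal than the highest of the ventricular list, Ryr2 (2.93). The atrial list had a median of 0.39, but its highest, Myl4 (18.8), lay above both. In bulk tissue, fewer cells of a type and less accessible DNA per cell cannot be told apart.

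Iroquois proteins are transcription factors with a homeodomain of the TALE class, which carries extra residues in the loop between its first helices. In mammals the genes form a pair of clusters that arose by duplication, with Irx1, Irx2 and Irx4 in one and Irx3, Irx5 and Irx6 in the other, separated by long stretches with few coding genes. In the mouse heart Irx4 is known as a gene of ventricular myocardium, Irx3 acts in the ventricular conduction system, where it affects the connexin genes Gja5 and Gja1, and Irx5 shapes the gradient of repolarisation across the ventricular wall through the potassium channel gene Kcnd2.

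All 6 members had a peak within 1 kb of an annotated start in replicate 1, in replicate 2 and in both, against 70.4%, 70% and 68.8% of protein-coding genes. The regions that carried the highest signal at the starts of Irx1, Irx2, Irx4 and Irx6 are shown first, since values that follow are read from them. They are given on the plus strand of mm10, from the GRCm38.p6 reference, as at most 300 bases around the middle of the region, with capitals for bases that lay in footprints of both replicates. The promoter of Irx4 is shown as a pair because its peaks in the 2 replicates did not overlap.
Irx1, both replicates, chr13:71963641-71963940: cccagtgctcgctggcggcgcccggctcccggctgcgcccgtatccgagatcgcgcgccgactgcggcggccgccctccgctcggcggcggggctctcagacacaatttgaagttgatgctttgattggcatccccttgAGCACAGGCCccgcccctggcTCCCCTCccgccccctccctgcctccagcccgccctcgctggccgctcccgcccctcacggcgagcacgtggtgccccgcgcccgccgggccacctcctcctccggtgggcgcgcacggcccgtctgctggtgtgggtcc
Irx2, both replicates, chr13:72628511-72628810: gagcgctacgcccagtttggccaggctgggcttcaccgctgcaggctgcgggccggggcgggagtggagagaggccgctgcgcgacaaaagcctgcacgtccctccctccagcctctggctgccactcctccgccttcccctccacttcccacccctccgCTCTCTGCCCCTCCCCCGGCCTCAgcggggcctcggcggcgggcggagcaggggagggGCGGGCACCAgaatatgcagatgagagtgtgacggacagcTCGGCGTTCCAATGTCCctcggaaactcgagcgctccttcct
Irx4, replicate 1 alone, chr13:73260461-73260545: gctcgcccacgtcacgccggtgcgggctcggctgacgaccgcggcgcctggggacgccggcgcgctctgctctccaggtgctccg
Irx4, replicate 2 alone, chr13:73260641-73260881: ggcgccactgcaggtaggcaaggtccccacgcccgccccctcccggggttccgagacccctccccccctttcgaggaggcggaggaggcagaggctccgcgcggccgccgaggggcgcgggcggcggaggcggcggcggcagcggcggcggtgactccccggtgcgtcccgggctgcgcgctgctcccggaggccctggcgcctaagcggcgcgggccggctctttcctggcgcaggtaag
Irx6, both replicates, chr8:92673571-92673870: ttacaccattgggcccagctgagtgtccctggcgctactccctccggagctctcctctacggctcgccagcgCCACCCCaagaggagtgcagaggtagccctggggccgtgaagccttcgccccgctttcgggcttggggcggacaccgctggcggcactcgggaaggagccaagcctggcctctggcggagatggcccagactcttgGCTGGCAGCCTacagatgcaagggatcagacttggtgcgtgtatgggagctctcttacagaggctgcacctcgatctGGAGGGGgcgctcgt

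Among the stretches shown, Irx2 had 51 bases protected in both replicates, Irx6 had 25 and Irx1 had 17, while neither stretch of Irx4 had any. The regions were rich in G and C, between 64.4% at Irx6 and 79.3% in the Irx4 stretch of replicate 2. The SP and KLF consensus GGGCGG, read on both strands, matched the Irx1 stretch at positions 71, 150, 168, 190 and 209, counted from its left end, with no base of any match protected in both replicates. In the Irx2 stretch the NFY consensus CCAAT at position 267 had all 5 bases protected in both replicates.

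**Figure D1:**
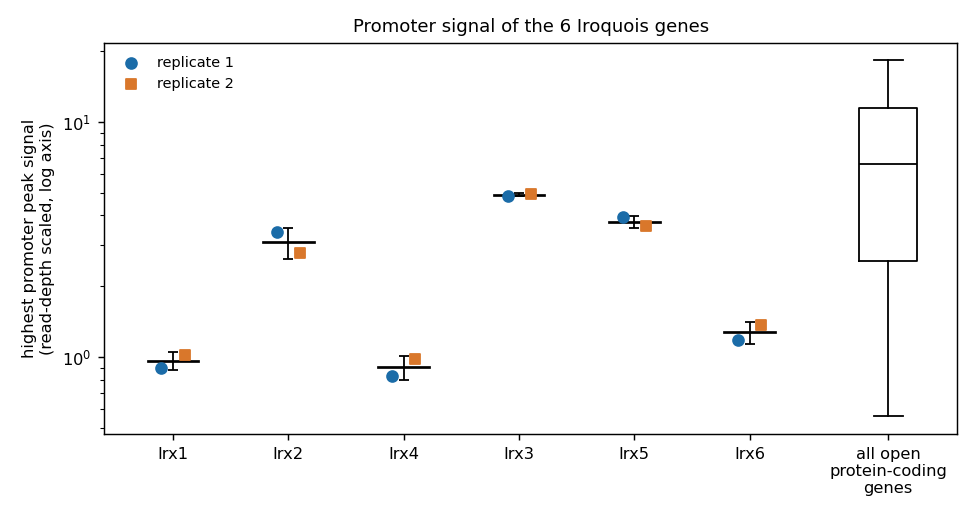
Highest peak signal within 1 kb of a start (read-depth scaled, log axis) for each Iroquois gene in replicate 1 (circles) and replicate 2 (squares), with the mean (bar) and SD (whiskers, n = 2), beside all 15067 protein-coding genes with a promoter peak in both replicates (box from 2.56 to 11.5 with the median at 6.59, whiskers from 0.559 to 18.3). The means of all 6 members lie below the median of these genes, and those of Irx1, Irx4 and Irx6 lie below the box.

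The 6 promoters fell into a stronger and a weaker trio, and the trios did not follow the clusters. Irx3, Irx5 and Irx2 had signals between 2.76 and 4.94 in either replicate, and Irx6, Irx1 and Irx4 between 0.830 and 1.37. Each cluster thus held genes of both trios, with Irx3 and Irx5 on chromosome 8 and Irx2 on chromosome 13 in the stronger. The peaks that place Irx3 and Irx2 there also lie at starts of non-coding genes, as given below. Even the strongest member ranked 9057 of 15067 genes with a promoter peak in both replicates, whose median signal was 6.59.

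Irx3 had a promoter signal of 4.85 in replicate 1 and 4.94 in replicate 2, with a mean of 4.90 ± 0.0642 (SD, n = 2), at percentile 58.7 of all protein-coding genes. The start of Irx3 also lies in the windows of its antisense gene Irx3os, and every peak within 1 kb of an Irx3 start was within 1 kb of an Irx3os start, so the 2 genes cannot be told apart. Irx5 had 3.92 and 3.60, with a mean of 3.76 ± 0.228 at percentile 53.8. Irx3 was above Irx5 in both replicates, and their values did not overlap. The order turned round with windows of 2 kb, where Irx5 had a mean of 11.8 against 4.90 at Irx3, and with peaks at the start of no other gene, an alternative chosen after the data were seen, where Irx3 had none.

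Irx2, which lies in the cluster on chromosome 13, had 3.41 in replicate 1 and 2.76 in replicate 2, with a mean of 3.08 ± 0.462 at percentile 51.1. This peak also served the start of the long non-coding RNA gene Gm20554 on the other strand. Leaving out peaks shared with the start of another gene, an alternative chosen after the data were seen, left no Irx2 peak in replicate 1 and none above 0.424 in replicate 2. The order of Irx5 above Irx2 held in both replicates, and their means differed by more than either SD.

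Irx6, whose role in the heart is less studied than those of its neighbours, had 1.18 in replicate 1 and 1.37 in replicate 2, with a mean of 1.27 ± 0.134 at percentile 41.4. Its peak stood 0.6 kb before the gene's start, in both replicates. Irx1, which with Irx2 is active in the developing ventricular septum of the mouse, had 0.901 and 1.02, with a mean of 0.961 ± 0.0848 at percentile 38.7. Irx4, the ventricular member, came last with 0.830 and 0.979, a mean of 0.904 ± 0.105 at percentile 38.2. Irx6 was above Irx1, and Irx1 above Irx4, in each replicate, but the means of Irx1 and Irx4 differed by less than either SD.

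Irx4 was also the only member whose promoter had no region shared by the replicates. In replicate 1 the peak covered 85 bases across the annotated starts, at chr13:73260461-73260545. In replicate 2 it covered 241 bases, at chr13:73260641-73260881, with its middle 0.3 kb past the start. Neither replicate listed a peak where the other had one, but the bases with a false discovery rate of cleavage under 0.05 did overlap: replicate 1 listed 269 such bases in the windows of Irx4, replicate 2 listed 530, and all 269 were listed in both. The lowest rate there was 0.017 in replicate 1 and 0.00034 in replicate 2. In the smaller deposited peak set, replicate 1 had no peak at Irx4, so that 5 of 6 members had one in both replicates, against 65.3% of protein-coding genes.

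**Figure D2:**
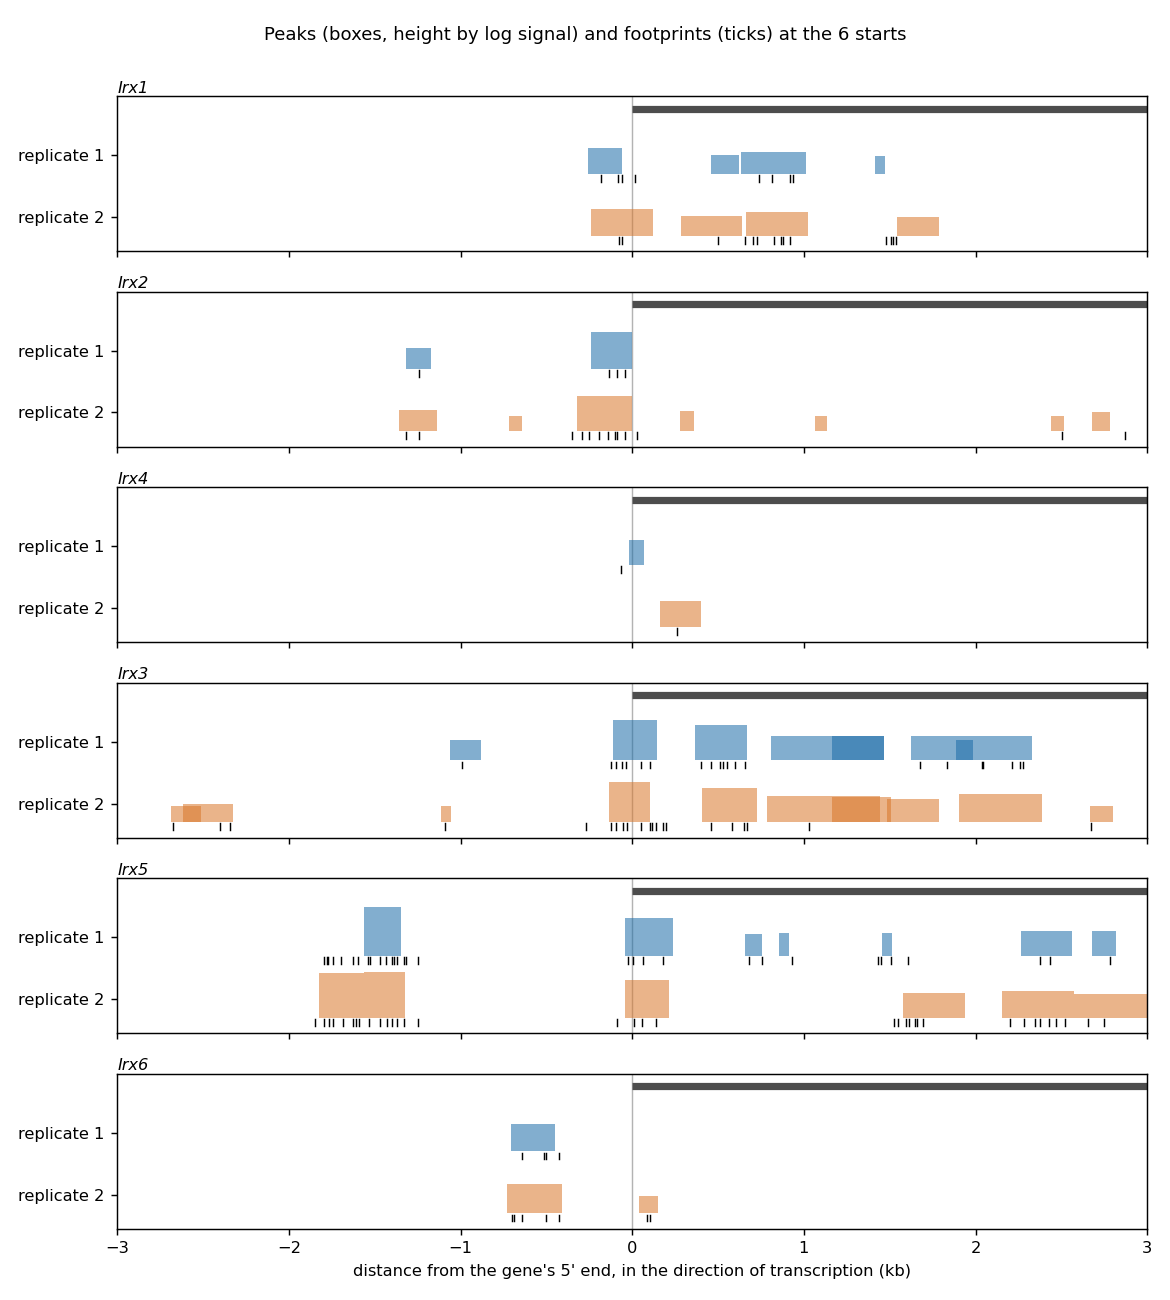
Peaks (boxes, height by the log of their signal) and footprints (ticks) of each replicate within 3 kb of the 5' end of each gene, with the gene as a bar from 0 to the right, and the x axis as distance in the direction of transcription in kb. The Irx4 boxes of the 2 replicates do not overlap, Irx6 has its taller boxes before the start, and the boxes 1.5 kb before Irx5 belong to the start of Crnde.

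Beyond the strongest peak, the members differed in how much of their start windows was accessible. Listed bases under a false discovery rate of 0.05 made up 71.5% of the Irx3 windows in replicate 1 and 85.7% in replicate 2, and 55.1% and 99.9% of the Irx5 windows. At the other 4 members the share lay between 11.7% and 18.1% in replicate 1 and between 24.6% and 40.6% in replicate 2. These shares depend on the length of the windows, which grows with the spread of the starts. The windows covered 2153 bases at Irx3, 2125 at Irx5, 2019 at Irx4 and 2539 at Irx6, but 5285 at Irx1 and 5519 at Irx2. In bases, Irx2 had the most in replicate 2, with 2240 against 2123 at Irx5 and 1845 at Irx3. In replicate 1 Irx2 had 647, against 1539 at Irx3 and 1171 at Irx5. Irx3 had the most footprints in its windows, 14 in replicate 1 and 16 in replicate 2, of which 9 of replicate 1 overlapped one of replicate 2. Irx2 had 3 and 11, Irx1 had 8 and 10, Irx5 had 7 and 4, Irx6 had 4 and 7, and Irx4 had 1 in each, at different places.

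Peak lists gave replicate 2 more peaks around every member, unlike most genes. In the gene bodies with 10 kb either side, the peak counts of replicate 1 and replicate 2 were 5 and 6 at Irx1, 4 and 13 at Irx2, 3 and 6 at Irx4, 9 and 13 at Irx3, 11 and 14 at Irx5, and 1 and 2 at Irx6. Replicate 2 was thus ahead at 6 of 6 members, against 20.9% of the 18746 protein-coding genes with a peak in either replicate, of which 49.1% had more in replicate 1. Together the member neighbourhoods held 33 peaks in replicate 1 and 54 in replicate 2, while the rest of the windows held 80 and 69. Without Irx2, which differed most, they held 29 and 41.

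The excess was small among the stronger peaks but remained in the smaller peak set. With the upper 50% of each replicate's peaks alone, an alternative chosen after the data were seen, the neighbourhoods held 22 peaks in replicate 1 and 24 in replicate 2, and replicate 2 was ahead at 2 of 6 members. With the smaller peak set, also chosen after the data were seen, they held 17 and 33, and replicate 2 was ahead at 4 of 6. No share over all protein-coding genes stands beside these 2 counts of members, so they cannot be set against most genes. Listed bases in the start windows also were more numerous in replicate 2 at 6 of 6 members, against 53% of 15211 protein-coding genes. Their median ratio of replicate 2 to replicate 1 was 1.62 at the members and 1.01 over those genes.

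**Figure D3:**
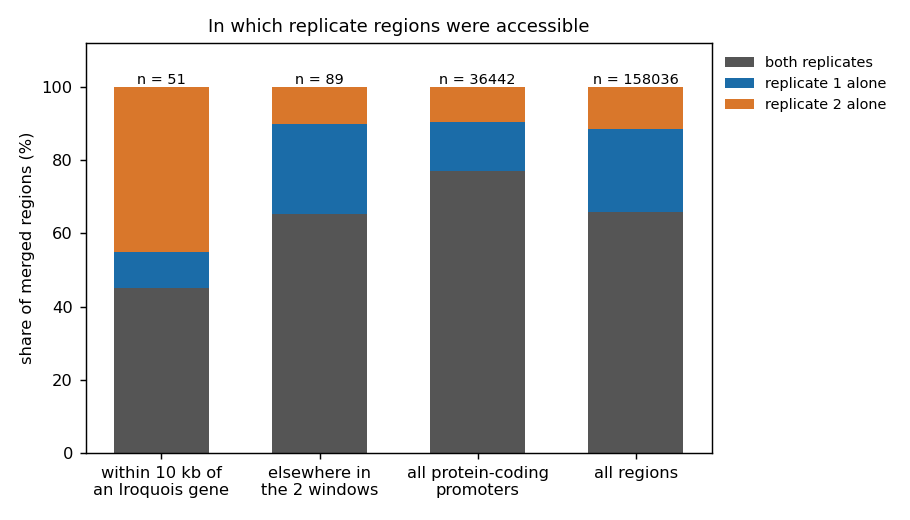
Share of merged regions (y axis, %) that were shared (grey), called only in replicate 1 (blue) or only in replicate 2 (orange), for regions in or within 10 kb of an Iroquois gene, the rest of the 2 windows, all protein-coding promoters and all regions. The orange share is 45.1% near the Iroquois genes, against 10.1% in the rest of the windows and 11.4% over all regions.

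The same held for merged regions. Of the 51 regions in or within 10 kb of a member, 23 (45.1%) were shared, 5 (9.80%) were called only in replicate 1 and 23 (45.1%) only in replicate 2. Of the 89 regions elsewhere in the windows, 58 were shared, 22 were called only in replicate 1 and 9 only in replicate 2. These shares of 65.2%, 24.7% and 10.1% stood close to the 65.9%, 22.6% and 11.4% of all regions. The Hox gene clusters, another homeobox family, read over whole windows with flanks, had 18 of 42 regions in replicate 2 alone at Hoxa (42.9%), 13 of 45 at Hoxb (28.9%), 8 of 28 at Hoxc (28.6%) and 4 of 27 at Hoxd (14.8%), each above the share of all regions, so a raised share was not particular to the Iroquois genes. Regions near members in replicate 2 alone had a median signal of 0.388, against 1.02 in replicate 2 for the shared regions there.

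GC content was also higher near members, where the shared regions had a median of 65.0% GC, against 54.3% elsewhere in the windows and 54.1% over all regions. Regions near members called only in replicate 1 or only in replicate 2 had medians of 68% and 64.6%, against 52% and 54.5% over all regions. Within GC classes the share in replicate 2 alone near members was 46.7% of 15 regions below 60% GC, 42.3% of 26 regions from 60% to 70%, and 50% of 10 regions above, against 11.3%, 13.4% and 7.34% of all regions in those classes.

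Signal ratios showed a related shift in the shared regions. At the 9 shared promoter regions of members the log2 ratio of replicate 1 over replicate 2 had a median of -0.03, replicate 2 being higher in 5 of 9, against 28.5% of shared promoter regions of all coding genes. In all 23 shared regions near members the median was 0.12, against 0.36 in the 58 shared regions elsewhere in the windows and 0.31 in all 104208 shared regions. Over both windows replicate 1 was higher in 65 of 81 shared regions (80.2%), against 80.8% of all. Replicate 2 had the higher promoter signal at 4 of 6 members, namely Irx1, Irx4, Irx3 and Irx6, against 19.3% of genes with a promoter peak in both. Over GC content, among all shared regions the median ratio was 0.36 below 60% GC, 0.22 from 60% to 70% and -0.02 above, and near members it was 0.40, 0.00 and 0.12 in these classes, with 6, 14 and 3 shared regions.

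**Figure D4:**
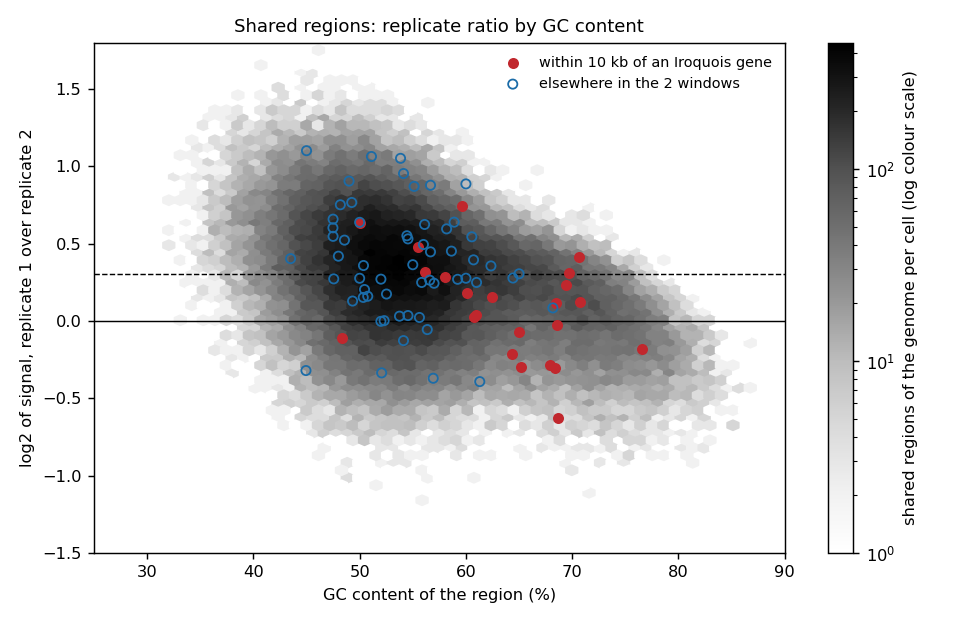
Log2 ratio of signal in replicate 1 over replicate 2 (y axis) against the GC content of the region (x axis, %) for all 104208 shared regions (grey, log colour scale), with regions within 10 kb of an Iroquois gene in red and others of the 2 windows in blue. The dashed line is the median of all shared regions, 0.31, and most red points lie at high GC and below it.

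Seen across their whole length, the clusters differed in how many regions lay between the genes. The window of Irx1, Irx2 and Irx4 had 39 peaks in replicate 1 and 47 in replicate 2, or 25.8 and 31.1 per Mb, with a mean of 28.4 ± 3.74 (SD, n = 2). The window of Irx3, Irx5 and Irx6 had 74 and 76, or 68.4 and 70.2 per Mb, with a mean of 69.3 ± 1.31. All chromosomes together had 52.5 and 45.9 per Mb, chromosome 13 had 52.8 and 45.5, and chromosome 8 had 58.5 and 50.9. In both replicates the first window was thus sparser, and the second denser, than its own chromosome.

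How far this held depended on the strength of the peaks counted. With the upper 50% of peaks, the window on chromosome 13 had 8.60 per Mb in replicate 1 and 9.26 in replicate 2, against 26.2 and 22.9 over the genome. The window on chromosome 8 had 25.9 and 26.8, so it was no longer denser than the genome in replicate 1. In that replicate chromosome 8 as a whole had 58.5 peaks per Mb with a median signal of 0.837, above the 0.780 of all peaks. More than 50% of its peaks were thus among those counted, so the window was sparser than its own chromosome in replicate 1. Peaks of the chromosome 8 window were numerous but mostly weak, with a median signal of 0.638 in replicate 1 and 0.594 in replicate 2, and those on chromosome 13 had medians of 0.582 and 0.424. Of the peaks on chromosome 13, 61.5% in replicate 1 and 46.8% in replicate 2 overlapped a peak of the smaller set, and of those on chromosome 8 58.1% and 60.5% did, against 65.3% and 63.8% of all peaks.

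**Figure D5:**
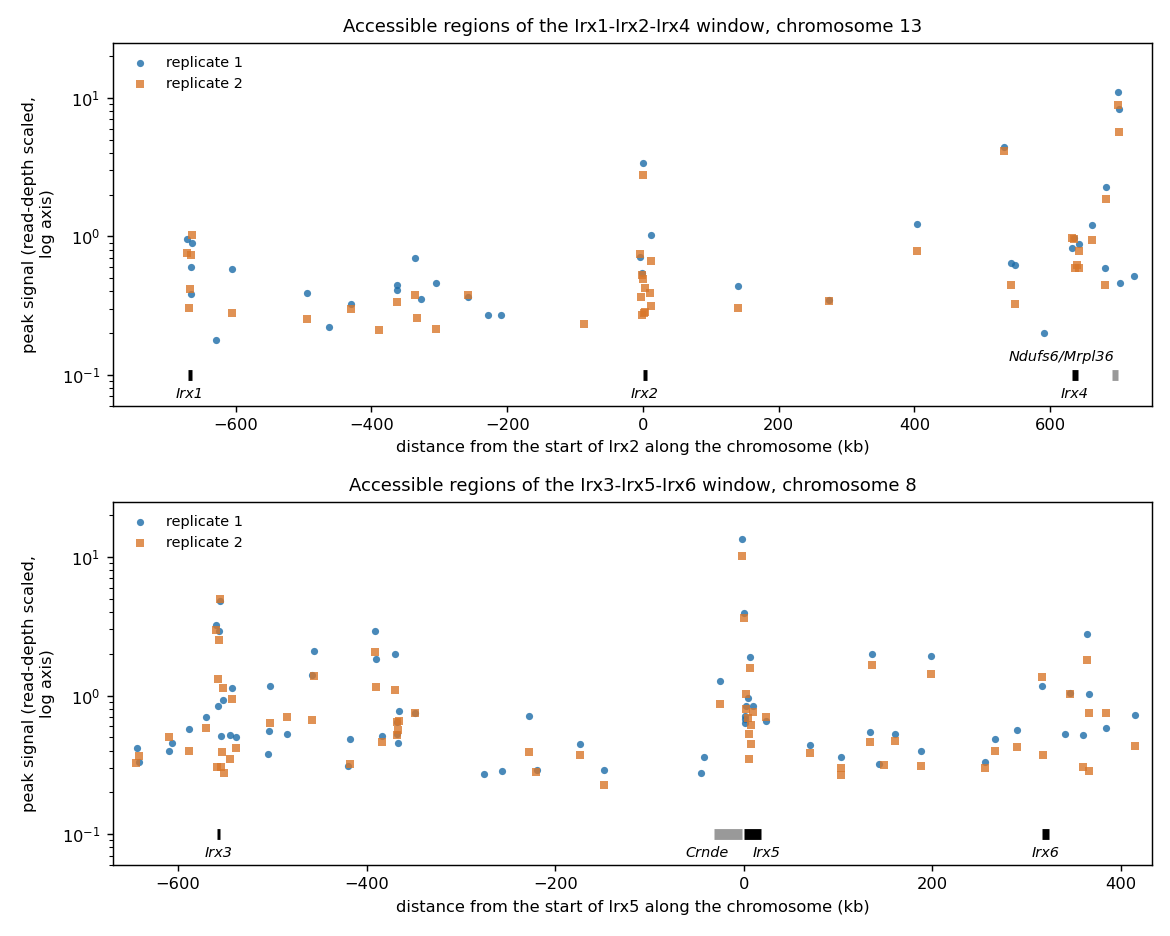
Signal (y axis, read-depth scaled, log axis) of every merged region of the 2 windows in replicate 1 (circles) and replicate 2 (squares), against the distance along the chromosome from the start of Irx2 or Irx5 (x axis, kb), with Iroquois genes as black and other named genes as grey bars. Regions cluster at the genes in both windows, less so at Irx6, and the gaps between genes hold more of them on chromosome 8. The highest points belong to Ndufs6 and Mrpl36 and to Crnde.

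On chromosome 13 peaks were denser near the genes than between them, although the genes with 10 kb either side held 12 of 39 peaks in replicate 1, 25 of 47 in replicate 2 and 25 of the 55 merged regions. Between Irx1 and Irx2, 645.1 kb held a density of 20.2 per Mb in replicate 1 and 17.1 in replicate 2, and between Irx2 and Irx4, 606.3 kb held 11.5 and 9.9. Against these, Irx1 with 10 kb either side had 193.8 and 232.5 per Mb, Irx2 had 157.6 and 512.2, and Irx4 had 103 and 206. The outermost 90 kb past Irx4, where Ndufs6 and Mrpl36 lie, had 77.8 and 55.6. The outermost 90 kb of the window on the side of Irx1, on the far side of the cluster, had no peak in either replicate.

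On chromosome 8 the gaps between genes were more populated. The 535.6 kb between Irx3 and Irx5 held 29 peaks in replicate 1 and 22 in replicate 2, or 54.1 and 41.1 per Mb, and 20 of their 31 merged regions were shared. The 278 kb between Irx5 and Irx6 held 39.6 and 43.2 per Mb. Irx6 differed from its neighbours, since its body with 10 kb either side had 37.5 and 75 per Mb, against 382.3 and 552.2 at Irx3 and 284.5 and 362.1 at Irx5.

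Few genes other than the Iroquois genes were annotated in the windows, and the strongest peaks lay at their starts. On chromosome 13 there were 16, of which 2 code for protein and 6 had a peak at a start in both replicates. The coding genes are Ndufs6, a subunit of respiratory complex I, and Mrpl36, a protein of the mitochondrial ribosome, which start head to head and shared a peak of 11 in replicate 1 and 8.92 in replicate 2. On chromosome 8 there were 17, none of them coding, and 4 had a start peak in both. The strongest region of that window, at the start of the non-coding gene Crnde, had 13.5 and 10.1, with a mean of 11.8 ± 2.36.

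The Crnde start lies 1.5 kb before that of Irx5, on the other strand, and its peak outdid the 3.92 and 3.60 at the Irx5 start itself. With promoter windows of 2 kb in place of 1 kb, the value of Irx5 became that of this peak, a mean of 11.8. The peak of replicate 1 is shown because it was the strongest of either window, with capitals as above. Of its 220 bases, 97 lay in footprints of both replicates, and both GGGCGG matches, at positions 24 and 193, and the CCAAT match at 164 were wholly protected.
Crnde start, replicate 1 peak, chr8:92356061-92356280: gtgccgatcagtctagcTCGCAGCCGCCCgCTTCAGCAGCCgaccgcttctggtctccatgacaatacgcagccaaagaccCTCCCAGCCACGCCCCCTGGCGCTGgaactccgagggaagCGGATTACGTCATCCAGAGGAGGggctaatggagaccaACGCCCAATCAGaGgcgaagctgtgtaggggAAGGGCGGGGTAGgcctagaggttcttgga

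Other non-coding starts with a peak in both replicates were weaker. On chromosome 13 Gm40999 had 1.24 in replicate 1 and 0.991 in replicate 2, but no peak inside the window had these values. They belong to a start of Gm40999 outside the window, and its start peak inside the window was lower in both replicates. Gm47836 had 0.362 and 0.376, and Gm47902 had 0.440 and 0.304, beside Gm20554, which shared the Irx2 peak. On chromosome 8 Gm36670 had 0.773 and 0.651 and the pseudogene Gm3272 had 0.518 and 0.304, beside Irx3os and Crnde. Gm36325 had 0.418 in replicate 1 alone. The remaining genes, 10 on chromosome 13 and 12 on chromosome 8, had none, most of them long non-coding RNAs or processed pseudogenes.

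Away from starts, 5 shared regions per window had the highest mean signal, and those whose sequence bears on the footprints are shown on the plus strand with capitals as above. On chromosome 13, 3 of the 5 held the CTCF consensus on either strand (CCA, any 2 bases, AG, any 2 bases, GGC), and all 12 bases of each match lay in footprints of both replicates. CTCF is the factor known for chromatin loop anchors and insulation. On chromosome 8, 1 of the 5 held it, in an intron of Irx5, again with all 12 bases protected. Of 44408 shared regions of like length away from starts, 13.4% held a match, against these 4 of 10, but the 10 were chosen as the strongest and the 44408 were of any strength. Over all footprints of the windows the CTCF share was not above that of the genome, as given with the other consensus sequences.
100 kb before Irx4, chr13:73160361-73160580: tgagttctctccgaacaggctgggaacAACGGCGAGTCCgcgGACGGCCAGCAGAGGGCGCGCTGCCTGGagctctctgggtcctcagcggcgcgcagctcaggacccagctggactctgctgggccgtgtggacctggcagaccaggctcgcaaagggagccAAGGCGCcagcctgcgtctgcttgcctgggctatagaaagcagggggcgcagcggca
50.3 kb after the Irx4 start, chr13:73310661-73310840: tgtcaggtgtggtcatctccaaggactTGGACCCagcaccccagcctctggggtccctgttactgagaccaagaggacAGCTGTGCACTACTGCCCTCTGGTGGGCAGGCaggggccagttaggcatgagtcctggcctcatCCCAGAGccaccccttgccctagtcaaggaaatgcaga
227.2 kb before Irx4, chr13:73033161-73033340: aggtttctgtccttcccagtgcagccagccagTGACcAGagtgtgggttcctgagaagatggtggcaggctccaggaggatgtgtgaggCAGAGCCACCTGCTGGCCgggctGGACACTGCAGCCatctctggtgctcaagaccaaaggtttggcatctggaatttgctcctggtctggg
6.8 kb after the Irx5 start, intron, chr8:92364481-92364680: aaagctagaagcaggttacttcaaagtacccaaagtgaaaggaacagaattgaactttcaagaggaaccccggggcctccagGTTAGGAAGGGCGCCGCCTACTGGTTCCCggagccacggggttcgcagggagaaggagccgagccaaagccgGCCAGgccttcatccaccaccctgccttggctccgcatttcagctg
4.2 kb after the Irx3 start, past its 3' end, chr8:91797621-91797820: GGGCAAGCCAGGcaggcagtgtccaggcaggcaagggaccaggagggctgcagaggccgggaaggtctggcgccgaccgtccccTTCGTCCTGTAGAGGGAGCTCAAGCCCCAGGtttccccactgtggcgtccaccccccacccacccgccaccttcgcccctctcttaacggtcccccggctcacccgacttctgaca
164.9 kb before Irx3, chr8:91966881-91967080: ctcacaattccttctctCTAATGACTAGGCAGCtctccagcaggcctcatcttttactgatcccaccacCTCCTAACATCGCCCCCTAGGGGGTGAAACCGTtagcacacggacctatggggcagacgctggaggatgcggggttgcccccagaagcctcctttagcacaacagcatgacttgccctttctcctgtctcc

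The region 100 kb before Irx4 was the strongest of chromosome 13 away from starts, with 4.40 in replicate 1 and 4.15 in replicate 2, above every Iroquois promoter of its window. Its CTCF match began at position 48. The region 50.3 kb after the Irx4 start had 2.27 and 1.87, with a match at position 93, and that 227.2 kb before Irx4 had 1.23 and 0.788, with a match at 94.

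The other 2 of the 5 held no CTCF match. The region at chr13:73290261-73290500, 29.9 kb after the Irx4 start, had 1.21 in replicate 1 and 0.937 in replicate 2 and held 3 matches to the TEAD consensus GGAATG, none of whose bases were protected in both replicates. TEAD factors act in the Hippo pathway of heart muscle, and 13.7% of the regions of like length held this consensus. The same region also held MEIS, HAND and AP-1 matches. Only the MEIS match (TGACAG) at position 120 had bases protected in both replicates, 4 of its 6, and 18% of the regions of like length held that consensus. The fifth region lay in an intron of Irx4, at chr13:73263685-73263939, with 0.965 and 0.949, values like those of the Irx4 promoter.

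On chromosome 8 the strongest region away from starts was close to Irx3, at chr8:91797621-91797820, with 3.21 in replicate 1 and 2.97 in replicate 2. The region 164.9 kb before Irx3 had 2.90 and 2.06, and one 46.9 kb after the Irx6 start, at chr8:92721661-92721840, had 2.79 and 1.81. The gap between replicates was wider in these than in the region beside Irx3. A region 135.9 kb after the Irx5 start had 1.98 and 1.67, and the intronic one of Irx5, with its CTCF match at position 95, had 1.91 and 1.57.

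By annotation of protein-coding genes, 36 of 55 merged regions on chromosome 13 (65.5%) and 65 of 85 on chromosome 8 (76.5%) were intergenic, against 38.6% of all regions. Promoters held 25.5% and 10.6%, against 23.1%. Introns held 5.45% and 11.8%, against 34%, in clusters whose 6 genes are between 3.54 and 18.7 kb long.

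Footprints in the windows resembled those of the genome in their share within peaks and differed in their overlap between replicates. On chromosome 13, 84.4% of 90 footprints in replicate 1 and 82.2% of 101 in replicate 2 had their middle in a peak, and on chromosome 8 85.1% of 161 and 87.2% of 187 did, against 86.6% and 85.3% of all footprints. Of the 39 and 47 peaks on chromosome 13, 82.1% and 70.2% held a footprint, and of the 74 and 76 on chromosome 8, 77% and 80.3% did, against 81.2% and 82.8% of all peaks. Of the footprints of replicate 1, 45.6% on chromosome 13 and 45.3% on chromosome 8 overlapped one of replicate 2, against 56.2% of all. Of those of replicate 2, 40.6% and 39% overlapped one of replicate 1, against 59.8% of all.

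None of the 17 consensus sequences searched stood apart from all footprints in the Iroquois windows. Each was read on both strands in the 31 bases around the middle of a footprint, and the genome's share lay inside the exact 95% binomial interval of the windows' share for all 17 in both replicates, where the intervals cover counting error only. The most frequent, GGGCGG, matched 5.98% of footprints in replicate 1 (interval 3.38% to 9.67%) and 5.90% in replicate 2 (3.48% to 9.28%), against 7.47% and 8.17% of all. The HAND consensus CATCTG matched 3.19% and 3.82%, against 2.59% and 2.40%. The CTCF consensus matched 1.99% and 2.08%, against 3.13% and 2.92%. The consensus given for Iroquois factors themselves, ACATGT, matched 0 of 251 in replicate 1, for which the exact interval reached 1.46% and the limit set by 3 counts of the total was 1.2%, and 1 of 288 (0.347%) in replicate 2, against 0.353% and 0.308% of all. At this number of footprints, differences of that size were not detectable.

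The promoters of Irx2 and Irx4 were also read in the RefSeq table for GRCm38.p6, with 250 bases before and 50 after each start. GGGCGG matched that of Irx2 at positions 142 and 158 and that of Irx4 at 134 and 188, and 35.7% of 32851 promoters held it. The Irx2 promoter also held CATCTG at 177 and CCAAT at 208, which 17.2% and 37.4% of promoters held. These Irx2 matches are not separate sites, since they lie in the Irx2 stretch shown above, where the CCAAT match is the one at position 267. The Irx4 matches lie before the start and in neither of the Irx4 stretches shown.

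Genes that act with heart Iroquois factors were read from lists. Of 8 regulators or partners, 7 had a promoter peak in both replicates. The median signal was 3.61 over all 8, with the gene without a peak at 0, against 2.18 over the 6 Iroquois genes. Hey2, the Notch effector of ventricular muscle, was highest with 17.8 in replicate 1 and 17.1 in replicate 2. Tbx5, the T-box factor of atria and conduction tissue, was the lowest of the 7 with 0.979 and 0.836, and Hand1 had no promoter peak. Of 9 genes known as targets, 7 had a peak in both, with a median of 1.5 over all 9.

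Among those targets Gja5, the connexin gene of atria and fast conduction tissue, was highest with 7.79 in replicate 1 and 5.14 in replicate 2. Kcnip2, a channel subunit of the transient outward current, had the lowest mean of the 7, with 1.24 and 1.32, although Myh6 with 1.12 and Kcnd2 with 1.19 were lower in replicate 2. Bmp10 and Myh7, a growth factor of the early heart and the slow myosin gene, had no promoter peak. Levels at these promoters are read here by their highest peak, which is no measure of transcription.

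All 11 TALE homeobox genes outside the family also had a promoter peak in both replicates, with a median of 5.93. By their means they reached from Pknox1 with 18.4 in replicate 1 and 13.7 in replicate 2, where Pbx3 was higher with 15.2, to Meis3 with 2.47 and 2.24, so that Irx6, Irx1 and Irx4 lay below all of them. The Hox genes, a homeobox family in 4 dense clusters, were set beside the Iroquois genes as well. Of 39, 20 had a promoter peak in both, 5 in 1 replicate and 14 in neither, with a median signal of 0.569 over all 39. The density of peaks in their windows was 63.3 to 88.2 per Mb in replicate 1 and 76 to 121.2 in replicate 2, with more in replicate 2 at each of the 4 clusters.

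The coding genes outside the family whose 4 values were nearest to each member's were named by the Euclidean distance over promoter signal and number of peaks in the body with 10 kb either side, each as log2 of 1 plus the value in the 2 replicates. They were Ccdc88b and Foxf2 for Irx1 (distances 0.119 and 0.140), 1110002E22Rik and Gdf6 for Irx2 (0.286 and 0.474), and Begain and Lmtk3 for Irx4 (0.133 and 0.193). For Irx3 they were Adamts20 and Arhgap18 (0.228 and 0.241), for Irx5 Ramp2 and Acvrl1 (0.107 and 0.129), and for Irx6 Isl1 and Nap1l3 (0.0604 and 0.194). The nearest gene of Irx2 stood farthest off of the 6, with 2.91 in replicate 1 and 2.88 in replicate 2 and with 4 and 11 peaks, beside the 4 and 13 of Irx2.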

How the data were processed

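DNase-seq of heart was analysed in 1 group of 2 biological replicates, numbered as in the labels. Per the submitters' processing notes beside the files, the authors made peaks, footprints and false discovery rates for each replicate from its own filtered mm10 alignment, without pooling. Callers, versions, thresholds, read totals and how CAST reads were handled remain not given in the sources used here. The authors scaled the deposited peak signal by read depth, by a formula that no source states. Peaks with a signal under 1 fell within 0.02 of whole steps of 0.00709 in replicate 1 and 0.00597 in replicate 2, which put the median peak at 110 and 122 steps. The deposited false discovery rates (q-value scale, adjusted p-values of the cut rate) are listed only under 0.05. The 0.01 in every row of the footprint lists was not used.

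From these, peaks overlapping or touching were merged over replicates, and a region with a peak in each was called shared. A gene's promoter was 1 kb either side of any start in GENCODE M21, and its value was the highest peak signal there. Region classes used protein-coding genes only. Percentiles are over 21911 protein-coding genes, with genes without a peak at 0. No test between groups was possible, and p-values were not computed. Named genes were the 6 members, all other genes in the windows, the 5 strongest shared regions per window away from promoters, the 2 nearest coding genes of each member, and the highest, the lowest and those without a peak in each list. The members and lists were chosen with earlier results of these data known. Alternatives covered windows, starts, peak sets, flanks, overlap and each replicate alone. Start sequences of some members are not reported here. Overlap and motif search were tested on simulated data. The reference was GRCm38.p6, the assembly of mm10. Scripts ran on Python 3.11.15 with pandas 2.3.3, numpy 2.4.6, matplotlib 3.10.9 and scipy 1.17.1.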

Additional observations from a re-analysis of the deposited data

How the results depend on the processing

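Of 103 values under alternative settings, 90 stayed within the spread, interval or 1.5-fold range of the reported value and 13 moved. Some of the 90 could not move. With 1 replicate left out, a promoter signal always stays within the SD of both replicates, and the count of 6 members cannot fall. The moves in peaks per Mb were not particular to the windows, since both settings count fewer peaks. Over the genome the mean went from 49.2 to 32.1 in the smaller set and to 24.5 with the upper 50% of peaks, also beyond 1.5-fold. The count of members with a promoter peak in both replicates was 6 under windows of 500 bp or 2 kb, other choices of start and the upper 50% of peaks, 5 in the smaller peak set, without Irx4, and 4 with peaks at the start of no other gene, without Irx2 and Irx3, a choice made after seeing the data. That choice gave Irx2 a mean of 0.212 and Irx3 a value of 0, the smaller set gave Irx4 0.489, and windows of 2 kb gave Irx5 11.8. For the chromosome 13 and chromosome 8 windows, peaks per Mb were 15.5 and 42 in the smaller set, against 32.1 over the genome, and 8.93 and 26.3 with the upper 50% of peaks, against 24.5. That last setting gave shared shares of 68.8% (11 of 16 regions) and 79.3% (23 of 29), footprints in peaks of 41.5 and 92, and 2 members with more peaks in replicate 2. With 1 replicate left out, peaks per Mb ranged from 25.8 to 31.1 and from 68.4 to 70.2, and footprints in peaks from 76 to 83 and from 137 to 163. No paired analysis was possible because there is 1 group. Limits are the unknown depth, n = 2, a replicate 1 that may be a pool, and peaks of 1 replicate that can overlap each other.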
